A study of Mus musculus with 2 samples.

Results

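A set of 10 genes of the TGF-beta superfamily was followed across the cell types of mouse limb muscle. They were the TGF-beta ligands Tgfb1, Tgfb2 and Tgfb3, the bone morphogenetic protein (BMP) and growth differentiation factor ligands Bmp2, Bmp4, Bmp6 and Gdf10, the activin subunit Inhba, and the secreted antagonists Fst (follistatin) and Grem1 (gremlin). The genes were chosen by symbol, and all 10 of them were among the 32285 genes listed in the deposited matrices. Live mononuclear cells were sorted from limb muscle, and 1 library was made on the 10x Genomics droplet system for each treatment: DMSO, the vehicle, and Maraviroc (MVC), a small-molecule drug. The study's text describes these libraries after its high-dose, short-term regime of intraperitoneal injection in aged C57BL/6 mice, while the labels give no dose, age, duration or number of mice for them. After filtering, 5437 DMSO cells and 5454 MVC cells remained, with 38748234 and 35518029 unique molecular identifiers (UMIs). With 1 library per group no difference could be set against the spread between mice, so no test was made, and all intervals below are 95% intervals that cover counting error only.

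TGF-beta ligands are secreted in a latent complex and signal after activation through type I and type II receptor kinases and Smad2 and Smad3, while BMPs use Smad1, Smad5 and Smad9. Activins, dimers of inhibin beta subunits such as the product of Inhba, share the Smad2 and Smad3 branch, and follistatin binds activins and myostatin and keeps them from their receptors. In skeletal muscle these factors act between fibro-adipogenic progenitors (FAPs, the interstitial mesenchymal cells), vessels, tendon cells and muscle stem cells (MuSCs), and they are known regulators of matrix production, muscle mass and stem cell quiescence.

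Cells were clustered without the members and the other pathway genes and were named from marker genes, each name carrying "-like". FAP-like cells fell into parenchymal, inflammatory and adventitial groups, and endothelial (EC-like) cells into arterial, venous and other groups. The "other EC-like" group held 1644 DMSO and 1587 MVC cells of 4 clusters, led by Slc1a1, Id1, Dipk2b and Terb2. The 2 tenocyte-like clusters were led by Col22a1 and by Wif1, and the 2 smooth muscle (SMC-like) clusters by Cck and by Colec11. Levels are given as CPM, the UMIs of a gene per 1000000 UMIs of that group of cells and library; fewer expressing cells and less RNA per cell cannot be told apart in such a sum. A ratio is the MVC CPM over the DMSO CPM, and it was called past the fold at 1.5 or above, or at 1/1.5 or below, where a gene had at least 50 UMIs in the group. Among kept cells 8 barcodes occurred in both libraries, and leaving them out moved none of the 9 ratios over all cells beyond its counting interval.

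**Figure D1:**
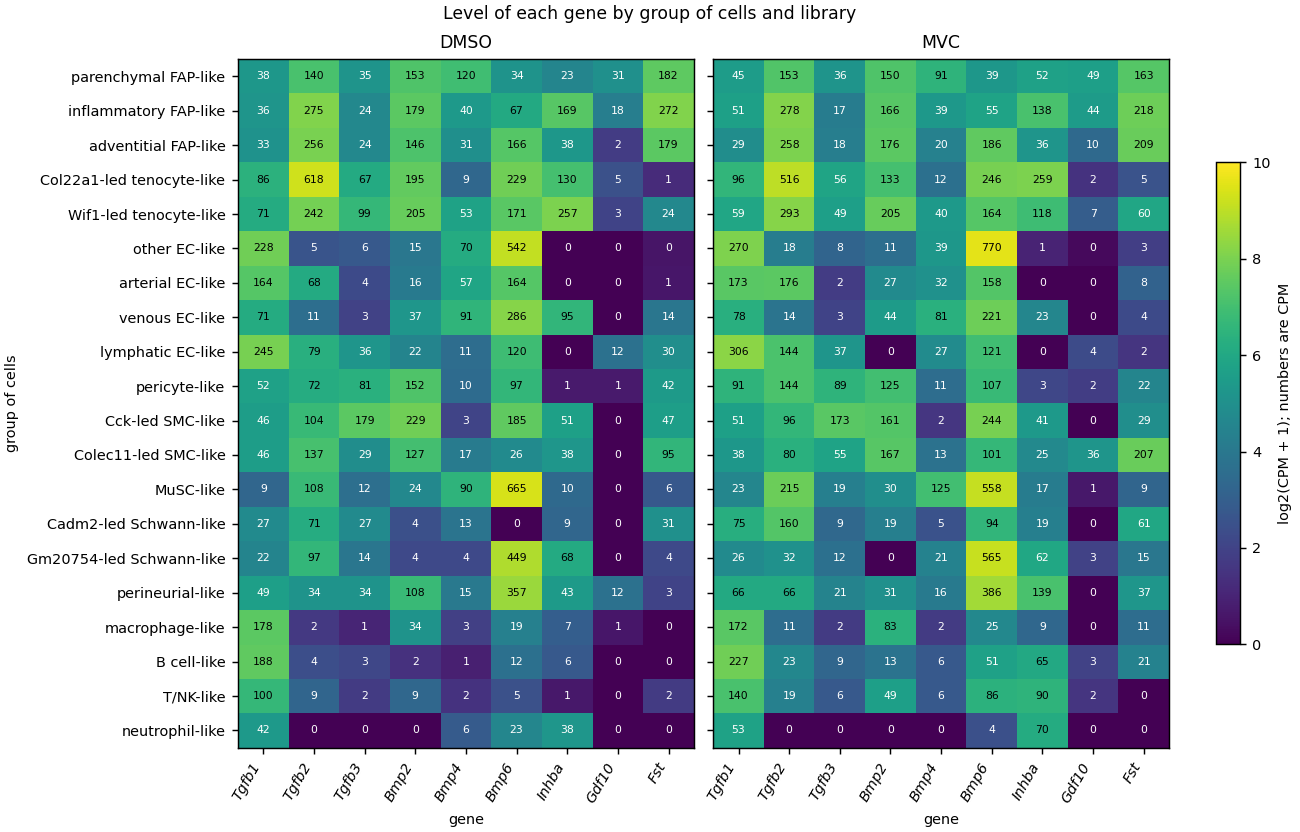
CPM of 9 genes (columns; Grem1 had 5 UMIs in all kept cells and is not drawn) in 20 groups of cells (rows), with the DMSO library on the left and the MVC library on the right. Colour gives log2(CPM + 1) and the printed number the CPM; Tgfb2 was highest in Col22a1-led tenocyte-like cells, Tgfb3 in Cck-led SMC-like cells and Fst in inflammatory FAP-like cells in both panels.

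Over all cells, Gdf10 was the 1 member of the 9 counted whose ratio was past the fold, against 13.2% of the 16805 genes counted. It stood at 6.81 CPM in the DMSO library and 15.4 CPM in the MVC library, a ratio of 2.26 (1.94 to 2.62). With the MVC levels weighted by the DMSO library's shares of UMIs over 23 groups of cells, the Gdf10 ratio was 1.98. The ratios of the other 8 members over all cells lay between 0.923 for Bmp4 and 1.18 for Tgfb2 and Bmp6. Weighted by the DMSO shares in the same way, they lay between 0.785 for Bmp4 and 1.22 for Bmp6. With the MVC library's shares Bmp4 was at 0.807. Within the 12 groups that held at least 100 cells in each library, 72 member ratios were counted, of which 14 were higher and 7 lower past the fold, or 29.2%. Over all genes in the same 12 groups, 15.9% of the ratios were past the fold.

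**Figure D2:**
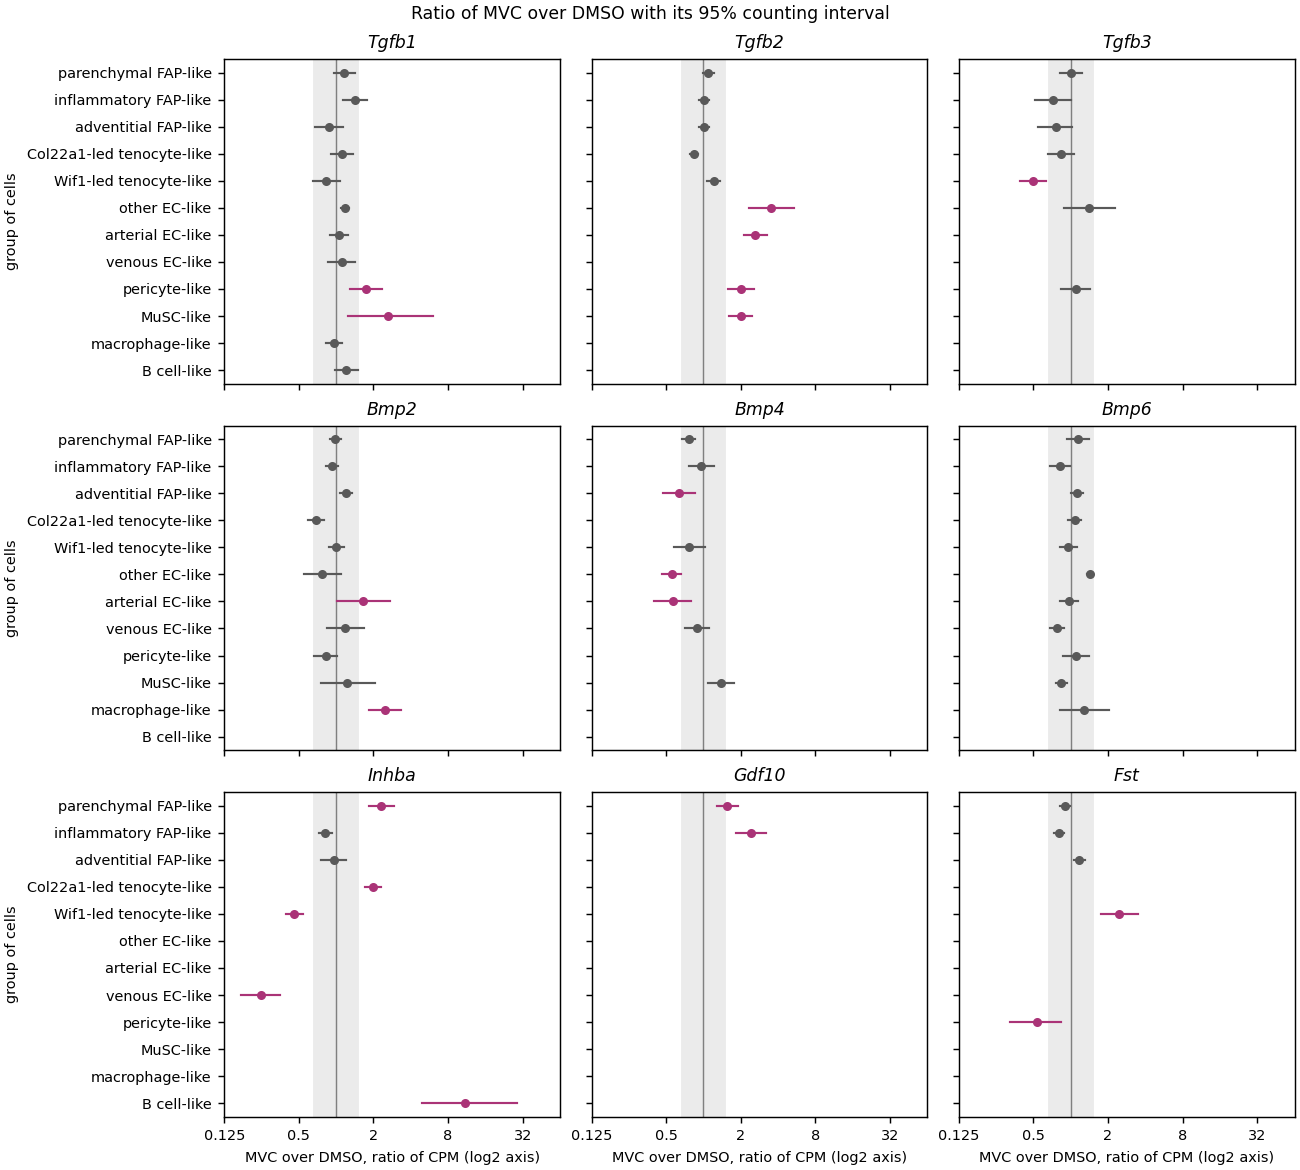
MVC over DMSO ratio of CPM for 9 genes in 12 groups of cells, on a log2 axis; points are ratios, bars 95% counting intervals, the grey band spans 1/1.5 to 1.5, and coloured points are past the fold. Ratios under 50 UMIs are not drawn, among them Tgfb2 in venous EC-like cells. Tgfb2 sits to the right in other and arterial EC-like, pericyte-like and MuSC-like rows and near 1 in FAP-like rows, and Bmp4 sits to the left in the other and arterial EC-like rows.

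Tgfb1 (chr7:25687002-25705077, plus strand, GRCm38) encodes the ligand most tied to fibrosis and immune restraint. Its level was highest in several endothelial and leukocyte groups here, and EC-like cells held 50.2% of its DMSO and 47.5% of its MVC UMIs. By UMIs, FAP-like cells held 470 in DMSO and 564 in MVC and tenocyte-like cells 333 and 346. Macrophage-like cells held 333 and 362, B cell-like cells 223 and 155 and T/NK-like cells 173 and 72. Lymphatic EC-like cells had the highest level, with 245.3 CPM in the DMSO and 306 CPM in the MVC library, followed by other EC-like cells with 228 and 269.5 CPM. B cell-like cells had 188 and 227 CPM, macrophage-like cells 178 and 172 CPM, and arterial EC-like cells 164 and 173 CPM, and each neighbour in this order overlapped the next within its counting intervals. FAP-like groups had 28.7 to 50.9 CPM and neutrophil-like cells 41.8 and 52.7 CPM. Venous EC-like cells had 70.6 and 77.9 CPM, below the tenocyte-like cells led by Col22a1 (85.8 and 95.6 CPM), so the endothelial groups were not alike.

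Between libraries Tgfb1 stayed inside the fold in most groups, and its ratio over all cells was 1.05 (0.999 to 1.09). Weighted by the DMSO library's shares of UMIs the ratio was 1.163, and by the MVC library's shares 1.144. It was 1.424 (1.14 to 1.78) in inflammatory FAP-like and 1.182 (1.096 to 1.274) in other EC-like cells. Within the other EC-like clusters it ran from 1.098 (0.834 to 1.456), Dipk2b-led, to 1.634 (1.368 to 1.955), Terb2-led. The Terb2-led ratio was past the fold. Tgfb1 was also past the fold in pericyte-like cells, the contractile cells wrapped around capillaries. They had 52 CPM in the DMSO and 90.5 CPM in the MVC library (ratio 1.74, 1.29 to 2.35). In the same cells Tgfb2 had a ratio of 2.01 and Fst one of 0.53, so 3 of 6 members counted were past the fold against 15.8% of all genes. The 5 erythroid markers summed to 4245 CPM in DMSO and 39 CPM in MVC pericyte-like cells, 11.2% of the group's cells were called doublets, and the 28 dissociation genes had a median log2 ratio of -0.39 there with 6 lower and 0 higher past the fold, values whose part in these ratios was not tested. In MuSC-like cells Tgfb1 had 9 DMSO and 42 MVC UMIs, a ratio of 2.61 (1.25 to 6.10), and without the 3 highest cells of each library it was 8.695 on 33 UMIs. The level was low, at 8.735 and 22.8 CPM, rank 20 of 22 groups. With so few DMSO UMIs the larger ratio is not read as a larger difference.

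Tgfb2 (chr1:186622792-186705989, minus strand) had a different map from Tgfb1. Tendon-lineage cells led it, with 618 CPM in DMSO and 516 CPM in MVC Col22a1-led tenocyte-like cells, beyond the counting intervals of all other groups. Inflammatory FAP-like cells (275 and 278 CPM), Wif1-led tenocyte-like cells (242 and 293 CPM) and adventitial FAP-like cells (256 and 258 CPM) came next and overlapped each other. FAP-like and tenocyte-like cells together held most Tgfb2 UMIs, 53.5% and 33.8% in the DMSO library. Over 21 groups of cells, the levels of Tgfb1 and Tgfb2 had a Spearman's rho of -0.41 (Pearson's r -0.37), and those of Tgfb2 and Tgfb3 a rho of 0.62 (r 0.67), values that describe groups taken from the same libraries.

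Tgfb2 was higher past the fold in the MVC library in 4 of the 12 large groups, and in none of these 12 was it counted as lower past the fold. Among smaller groups it was lower past the fold in Colec11-led SMC-like cells (136.6 and 80.25 CPM). It was higher past the fold in lymphatic EC-like and Cadm2-led Schwann-like cells. In the Colec11-led and Cadm2-led groups 3 cells held 52.6% and 85.3% of the MVC UMIs. Among the 12 large groups, Tgfb2 had under 50 UMIs and was not counted in B cell-like (5 and 16), macrophage-like (4 and 23) and venous EC-like cells (23 and 22 UMIs). Of the 4 groups, the other EC-like one is not read as a difference, as given below. In arterial EC-like cells Tgfb2 stood at 67.7 CPM in DMSO and 176 CPM in MVC (ratio 2.60, 2.10 to 3.24). With every cell thinned to 2000 UMIs, a Tgfb2 UMI was found in 9.56% of DMSO and 21.3% of MVC arterial cells (18.1% and 35% unthinned), against 0.99% and 1.10% of B cell-like cells, whose median depths were 5071 and 5334 UMIs beside 5730 and 5216 UMIs. In other EC-like cells the level was low in both libraries, 5.12 and 17.9 CPM (ratio 3.49, 2.32 to 5.38). This ratio was above 1 in each of the 3 other EC-like clusters in which it could be read, at 3.03 in the Slc1a1-led, 3.94 in the Id1-led and 5.10 in the Terb2-led cluster. B cell-like cells, however, had 4.22 and 23.5 CPM (5 and 16 UMIs; ratio 5.57, 1.95 to 19.4) and macrophage-like cells 2.14 and 10.9 CPM, and after thinning a Tgfb2 UMI was found in 0.551% of DMSO and 1.43% of MVC other EC-like cells (1.28% and 2.46% unthinned). The Tgfb2 of other EC-like cells was thus near the level of cells of other types, and its ratio is not read as a difference in expression; with 10 CPM added to both levels it was 1.845. MuSC-like cells had 108 and 215 CPM (ratio 1.995, 1.61 to 2.49), and pericyte-like cells 71.9 and 144.5 CPM (ratio 2.01, 1.58 to 2.57). In the groups with the most Tgfb2 the libraries were close: the ratio was 1.01 in both inflammatory and adventitial FAP-like cells and 0.835 (0.772 to 0.904) in Col22a1-led tenocyte-like cells.

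The summed FAP marker list was 712 CPM in DMSO and 749 CPM in MVC other EC-like cells, and 1076 and 1083 CPM in arterial EC-like cells. The tenocyte list was 14 and 46 CPM in other EC-like cells and 10.8 and 25.1 CPM in arterial EC-like cells. The pericyte list was 248 and 549 CPM in arterial EC-like cells, and the part of these lists in the Tgfb2 ratios was not tested. In MuSC-like cells the FAP list stood at 490 and 1449 CPM and the tenocyte list at 26.2 and 141 CPM, and their part in the MuSC-like ratio was not tested. With called doublets removed the MuSC-like Tgfb2 ratio was 1.80. In MuSC-like cells 2 of 5 members counted were past the fold, against 19.2% of genes, and 12 of the 28 dissociation genes were higher past the fold, among them Fos at 537 and 1246 CPM.

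The 250 bases upstream of the Tgfb2 and Gdf10 starts are shown because the differences of these 2 members recurred over several groups of cells. Both are read 5′ to 3′ on the gene's strand from RefSeq, build GRCm38.p6, and 7 of the 10 members had such a window. The Tgfb2 stretch lies at chr1:186705990-186706239 on the minus strand and the Gdf10 stretch at chr14:33923337-33923586 on the plus strand. Capitals mark matches on either strand. The TATA box was searched as TATAAA and the GC box as GGGCGG. The AP-1 motif was searched as TGANTCA and the half-site of the cAMP response element as TGACG.
Tgfb2: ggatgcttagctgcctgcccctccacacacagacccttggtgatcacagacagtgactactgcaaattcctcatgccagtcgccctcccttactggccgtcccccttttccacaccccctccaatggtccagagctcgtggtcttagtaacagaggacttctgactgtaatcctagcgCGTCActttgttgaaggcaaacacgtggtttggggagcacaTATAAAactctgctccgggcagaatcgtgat
Gdf10: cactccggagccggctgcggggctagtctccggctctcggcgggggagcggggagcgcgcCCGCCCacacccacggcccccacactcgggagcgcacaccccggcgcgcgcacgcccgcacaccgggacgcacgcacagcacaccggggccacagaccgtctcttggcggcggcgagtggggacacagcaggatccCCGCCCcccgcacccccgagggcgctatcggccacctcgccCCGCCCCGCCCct
Tgfb2 had a TATA box match 31 bases before the start and a half-site match 72 bases before it, in a stretch with a GC content of 53.6%. Gdf10 had 4 GC box matches, the nearest pair overlapping by 1 base, no TATA box match, and a GC content of 78.8%. Of 32851 such windows of all genes, 12.4% held a TATA box match, 32.7% a GC box match, 17.8% a half-site match and 6.75% an AP-1 match, and a match describes the letters only.

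Tgfb3 (chr12:86056745-86079041, minus strand) was highest per UMI in Cck-led SMC-like cells, while FAP-like cells held 33.3% of its DMSO and 37.5% of its MVC UMIs and tenocyte-like cells 31.6% and 24.7%. Cck-led SMC-like cells had 179 CPM in DMSO and 173 CPM in MVC (ratio 0.968, 0.724 to 1.29), beyond the counting intervals of the next group, and pericyte-like cells followed with 80.9 and 88.9 CPM. Wif1-led tenocyte-like cells had 99.3 and 49.1 CPM, a ratio of 0.495 (0.388 to 0.628) and the only large group in which Tgfb3 was past the fold. The ratio in the Col22a1-led tenocyte-like cluster was 0.835 (0.654 to 1.07). Ttll5, a gene on the opposite strand, overlaps Tgfb3 and had 2001 UMIs in kept cells; whether the counting used strand is not given in the sources used here.

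Bmp2 (chr2:133552159-133562885, plus strand), a ligand of bone and tendon insertion biology, was a general stromal transcript. FAP-like cells held 55.6% of its DMSO and 59.1% of its MVC UMIs, and tenocyte-like cells 22.3% and 20.3%. Levels ran from 125 to 229 CPM in FAP-like, tenocyte-like, pericyte-like and SMC-like groups and overlapped between neighbours, and were 14.7 CPM in DMSO and 11.4 CPM in MVC other EC-like cells. In macrophage-like cells Bmp2 stood at 33.7 CPM in DMSO and 83.2 CPM in MVC (63 and 175 UMIs; ratio 2.47, 1.84 to 3.35), and 42.3% of the MVC UMIs came from 3 cells. Without the 3 highest cells of each library this ratio was 2.56, and with called doublets removed 2.18. The FAP list in macrophage-like cells was 468 and 638 CPM and the tenocyte list 9.1 and 59 CPM, whose part was not tested. Of 3 members counted in macrophage-like cells Bmp2 alone was past the fold, against 16.4% of genes. Col22a1-led tenocyte-like cells had 195 and 133 CPM (ratio 0.684, 0.589 to 0.794), just inside the fold, and Wif1-led tenocyte-like cells 205 CPM in both.

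Bmp4 (chr14:46383520-46390669, minus strand), a ligand of vessel and mesenchyme patterning, was shared by MuSC-like cells (90.3 CPM in DMSO, 125 CPM in MVC), parenchymal FAP-like cells (119.7 and 90.7 CPM) and endothelium. EC-like cells held 39.7% of its DMSO UMIs and 23.7% of its MVC UMIs. In other EC-like cells it stood at 69.7 and 38.6 CPM (449 and 190 UMIs; ratio 0.555, 0.466 to 0.658), and in arterial EC-like cells at 57.4 and 32.4 CPM (ratio 0.565, 0.399 to 0.793). Each of the 4 other EC-like clusters had a ratio with an interval below 1, from 0.458 in the Terb2-led to 0.655 in the Slc1a1-led cluster. The erythroid list summed to 3101 CPM in DMSO and 1561 CPM in MVC other EC-like cells, and its part in the Bmp4 ratio was not tested. Venous EC-like cells were level, at 91.2 and 81 CPM (ratio 0.888, 0.705 to 1.12). Bmp4 was also lower in adventitial FAP-like cells (30.9 and 19.8 CPM; ratio 0.639, 0.475 to 0.854), where 38.3% of the DMSO UMIs were in 3 cells and the ratio without the 3 highest cells of each library was 0.823; the erythroid list was 135 and 13.3 CPM there, and its part was not tested. It was the 1 member past the fold of 8 counted there, against 12.4% of genes.

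**Figure D3:**
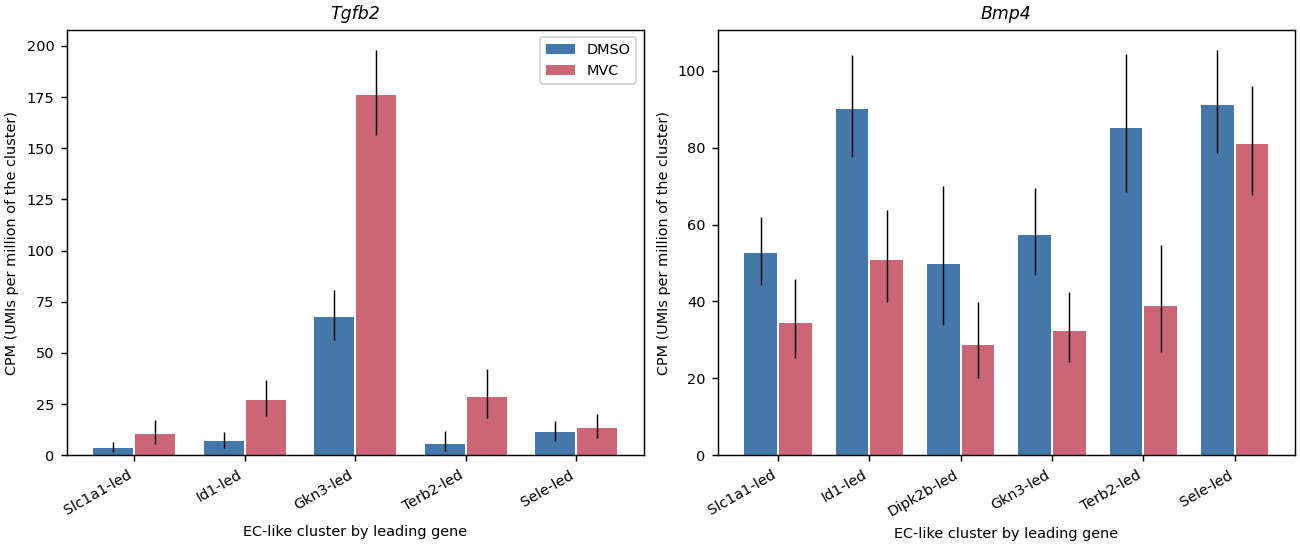
CPM of Tgfb2 (left) and Bmp4 (right) in the EC-like clusters, named by leading gene, in the DMSO and MVC libraries; bars start at 0 and error bars are 95% Poisson counting intervals. A cluster with under 20 UMIs of the gene is not drawn, which leaves out the Dipk2b-led cluster for Tgfb2. The Gkn3-led cluster is arterial and the Sele-led cluster venous. In the other clusters Bmp4 is lower in the MVC library. The Tgfb2 bars of the other clusters drawn are higher in the MVC library but near the level of cells of other types, and are not read as a difference in expression.

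Bmp6 (chr13:38345107-38500302, plus strand), which endothelial cells of the liver use to set hepcidin and thus iron supply, was mainly endothelial here, with high levels in MuSC-like cells too. EC-like cells held 56.5% of its DMSO and 52.5% of its MVC UMIs. Other EC-like cells had 542 and 770 CPM (3492 and 3786 UMIs; ratio 1.42, 1.36 to 1.49), inside the fold, and the ratio was 1.33 when scaled by the median ratio of genes. Within the 4 clusters of this group the ratios were smaller, from 1.01 (0.882 to 1.15) in the Terb2-led to 1.21 (1.11 to 1.32) in the Dipk2b-led cluster. The Dipk2b-led cluster had the highest Bmp6 of the 4, at 1199 and 1453 CPM, and it held 209 DMSO and 454 MVC cells. MuSC-like cells had 665 and 558 CPM (ratio 0.840, 0.762 to 0.927) and venous EC-like cells 286 and 221 CPM (ratio 0.772, 0.675 to 0.881). After thinning, a UMI was found in 52.5% of DMSO and 57.3% of MVC other EC-like cells (65.2% and 63.1% unthinned), against 1.49% and 6.59% of B cell-like cells. Among the FAP-like groups, parenchymal cells had the least, at 33.7 and 38.6 CPM, while adventitial FAP-like cells had 166 and 186 CPM. In the 6 members counted in other EC-like cells, 2 were past the fold (Tgfb2 and Bmp4), against 16.5% of genes; in arterial EC-like cells 3 of 5 were, against 12.1%, the third being Bmp2 at 16.2 and 26.9 CPM with a ratio of 0.910 when each cell's own CPM was averaged. Txndc5, on the opposite strand, overlaps Bmp6 and had 3320 UMIs.

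Gdf10 (chr14:33923587-33937983, plus strand), also called BMP3B, is a ligand made by muscle mesenchymal cells and known from work on muscle maintenance. FAP-like cells held 88.6% of its DMSO and 91.2% of its MVC UMIs. Parenchymal FAP-like cells had 31.5 and 49.2 CPM (141 and 318 UMIs; ratio 1.56, 1.28 to 1.92), inflammatory FAP-like cells 18.2 and 44.1 CPM (83 and 142 UMIs; ratio 2.42, 1.84 to 3.22) and adventitial FAP-like cells 2.42 and 9.75 CPM (10 and 38 UMIs; ratio 4.03, 1.97 to 9.08). All 3 FAP-like groups were thus higher in the MVC library. After thinning, a Gdf10 UMI was found in 5.86% of DMSO and 7.42% of MVC parenchymal cells, 3.53% and 7.65% of inflammatory cells and 1.03% and 2.76% of adventitial cells, and the intervals of the libraries overlapped in each. Unthinned, the shares were 13.6% and 14%, 10.7% and 16%, and 2.71% and 5.56%. B cell-like cells gave 0 of 202 DMSO cells, which allows a share of up to 1.81%, and 1.10% of MVC cells. Both counted members past the fold in parenchymal cells, Gdf10 and Inhba, were higher (2 of 9, against 16% of genes), and in inflammatory cells Gdf10 was the 1 of 9, against 11.7%. The parenchymal ratio was 1.41 when scaled by the median ratio of genes and 1.22 when each cell's own CPM was averaged.

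At a finer clustering, which again did not use Gdf10, a FAP-like cluster of 165 DMSO and 174 MVC cells had Gdf10 and C7 as its leading genes. Gdf10 stood at 86.3 CPM in its DMSO and 217.5 CPM in its MVC cells (109 and 237 UMIs; ratio 2.52, 2 to 3.19). A cluster led by Tslp and Ifi205 had 28.8 and 74.5 CPM (ratio 2.58, 1.95 to 3.45), and one led by Dnajb1 and Egr1 13.5 and 28.1 CPM (ratio 2.09, 1.29 to 3.48). The Kcnb2-led cluster, which held 141 DMSO and 337 MVC cells, had only 4.32 and 6.25 CPM (ratio 1.45, 0.561 to 4.41). In the Gdf10 and C7 cluster Tgfb2 was also higher (116 and 197 CPM; ratio 1.70, 1.37 to 2.11), Bmp4 lower (87.1 and 58.7 CPM; ratio 0.674, 0.487 to 0.926) and Fst level (299 and 325 CPM; ratio 1.09, 0.936 to 1.26).

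**Figure D4:**
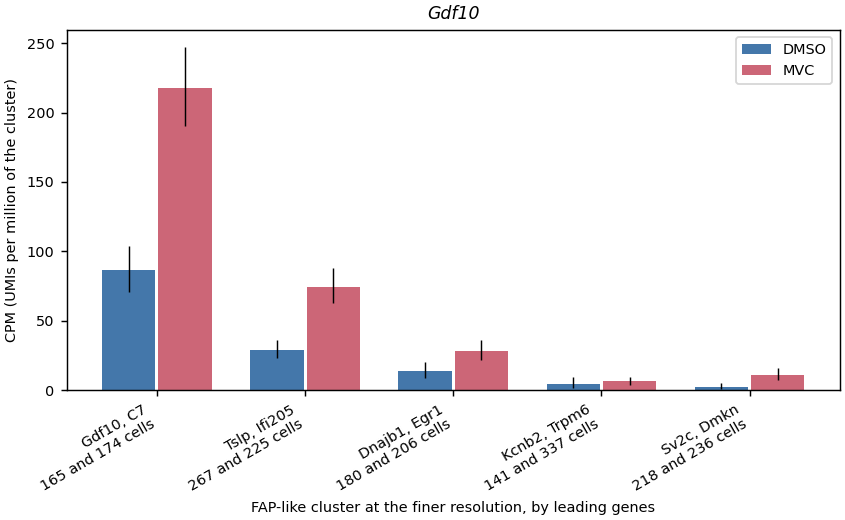
CPM of Gdf10 in the FAP-like clusters of the finer clustering that held at least 20 Gdf10 UMIs, in the DMSO and MVC libraries, with the cells of each library under the 2 leading genes; bars start at 0 and error bars are 95% Poisson counting intervals. The MVC bar is the higher in all 5 clusters, from 86.3 against 217.5 CPM in the Gdf10 and C7 cluster to 4.32 against 6.25 CPM in the Kcnb2-led cluster, where the intervals overlap.

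Inhba (chr13:16011851-16031621, plus strand) was made by tenocyte-like and inflammatory FAP-like cells, with FAP-like cells holding 47.4% and 44.3% and tenocyte-like cells 37.1% and 40.6% of its UMIs in the DMSO and MVC libraries. Without 1 Wif1-led tenocyte-like cell of the DMSO library, which held 355 Inhba UMIs, the DMSO shares were 56.7% in FAP-like and 24.8% in tenocyte-like cells. In Col22a1-led tenocyte-like cells it stood at 130.5 CPM in DMSO and 259 CPM in MVC (289 and 586 UMIs; ratio 1.99, 1.72 to 2.30), the 1 of 6 members past the fold there against 16.6% of genes. After thinning, 16.2% of DMSO and 25.3% of MVC cells of this cluster had an Inhba UMI (38.1% and 47.2% unthinned), against 0 of 202 DMSO and 1.10% of MVC B cell-like cells, where 0 of 202 allows up to 1.81%. In Wif1-led tenocyte-like cells the direction was opposite, with 257 and 118 CPM (517 and 260 UMIs; ratio 0.461, 0.395 to 0.536). There, however, that cell held 355 of the 517 DMSO UMIs and 3 cells held 77.4%, 1 of them a called doublet. Without the 3 highest cells of each library the Wif1-led ratio was 1.54, and with called doublets removed 1.46, so the direction rested on the few cells left out. Arterial EC-like cells had 0 Inhba UMIs in either library, which allows up to 1.62 CPM in DMSO and 1.83 CPM in MVC.

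In parenchymal FAP-like cells Inhba was higher in the MVC library, at 22.6 and 51.9 CPM (101 and 336 UMIs; ratio 2.30, 1.84 to 2.91), and the ratio was 2.86 without the 3 highest cells of each library. In the same cells the 28 dissociation genes had a median log2 ratio of -0.41 and 7 were lower past the fold, against a median of 0.15 over all genes. Inflammatory FAP-like cells had 169 and 138 CPM (ratio 0.816, 0.725 to 0.918), with 42.5% of the DMSO UMIs in 3 cells, and adventitial FAP-like cells 38 and 36.2 CPM. Venous EC-like cells had 94.6 and 23.3 CPM (193 and 38 UMIs; ratio 0.246, 0.169 to 0.35), but 3 cells held 88.6% of the DMSO and 84.2% of the MVC UMIs, so the ratio compares a few cells; Inhba was the 1 of 5 members past the fold there against 19.3% of genes. Of 7 DMSO and 44 MVC UMIs in B cell-like cells, 42 of the MVC UMIs were in 3 cells, 2 of them called doublets. The tenocyte list summed to 7.59 CPM in DMSO and 216 CPM in MVC B cell-like cells and the FAP list to 482 and 3253 CPM, and their part in the ratio of 10.9 was not tested. Inhba was 1 of 2 members counted there, against 20.7% of genes.

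**Figure D5:**
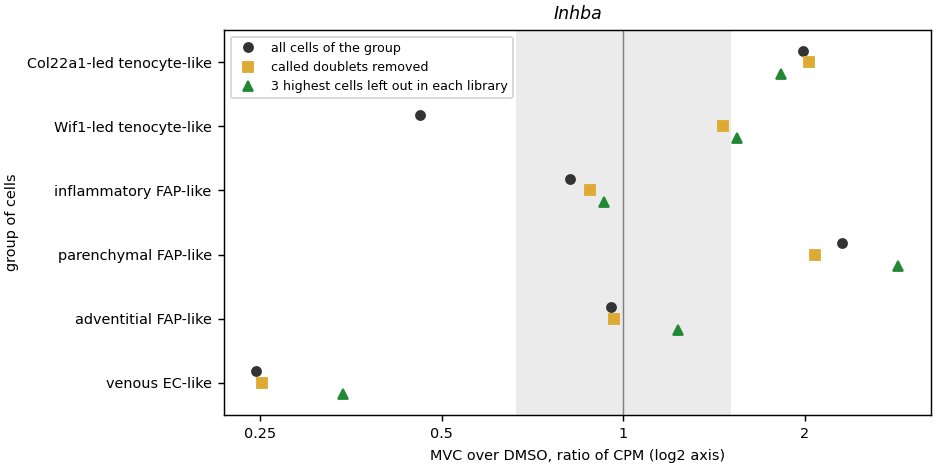
MVC over DMSO ratio of Inhba CPM in 6 groups of cells, on a log2 axis, from all cells of the group (circles), with called doublets removed (squares) and with the 3 cells that had most Inhba UMIs left out in each library (triangles); the grey band spans 1/1.5 to 1.5. The Col22a1-led tenocyte-like and parenchymal FAP-like points stay to the right of the band, the venous EC-like points to the left, and the Wif1-led tenocyte-like points move from 0.461 to 1.46 and 1.54.

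Fst (chr13:114452290-114458951, minus strand) was a FAP transcript, with 90.7% of DMSO and 86.4% of MVC UMIs in FAP-like cells. Inflammatory cells had 272 and 218 CPM (ratio 0.803, 0.731 to 0.882), adventitial cells 179 and 209 CPM (ratio 1.17, 1.06 to 1.29) and parenchymal cells 182.5 and 163 CPM (ratio 0.893, 0.814 to 0.980). None of these 3 ratios was past the fold, although Inhba was past it in parenchymal cells. Outside FAP-like cells, few cells carried Fst in the large groups where it was past the fold. In Wif1-led tenocyte-like cells it stood at 24.3 and 60 CPM (ratio 2.47, 1.77 to 3.50), with 63.3% of the DMSO and 77.3% of the MVC UMIs in 3 cells. In pericyte-like cells it stood at 42.4 and 22.4 CPM (ratio 0.53, 0.325 to 0.840), with 81.8% and 63% in 3 cells. Without those cells the ratios were 1.54 and 1.08. In Wif1-led tenocyte-like cells 3 of 8 members (Tgfb3, Inhba and Fst) were past the fold, against 17% of genes; the haemoglobin genes Hbb-bs and Hba-a1 there had 7 and 2 UMIs in DMSO and 739 and 200 UMIs in MVC, and their part in the members' ratios was not tested. Grem1 (chr2:113746164-113758646, minus strand), a BMP antagonist, had 5 UMIs in kept DMSO cells, all in FAP-like cells, and 0 in kept MVC cells, so no ratio is given.

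The genes whose levels over the 27 clusters were most like each member's, by Pearson's r of log2(CPM + 10) with both libraries summed, were named without reading shared control from them. For Tgfb2 they were Loxl2 (r = 0.87), Fgfr1 and Nfix (both 0.87), for Bmp2 Slit3 (0.88), Tbx18 (0.87) and Cygb (0.86), and for Gdf10 Srpx (0.87), Rbp4 (0.86) and Podn (0.86). Inhba was most like Thbs1 (0.77), Timp1 (0.77) and Cpxm2 (0.76), and Fst most like C1s1 (0.87), Il1rl2 (0.87) and Adamts2 (0.86). Tgfb1 was nearest to Rmnd5b (0.85), Serinc3 (0.85) and H2-K1 (0.82), Tgfb3 to Ift43 (0.85), Usp2 (0.83) and Ctdspl (0.82), Bmp4 to Lpin3 (0.77), Ghr (0.74) and Arhgap28 (0.73), and Bmp6 to Adarb1 (0.83), Gm26672 (0.80) and Pdzd2 (0.78).

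Among the other ligands of the superfamily, 8 of 14 were counted over all cells, and 2 were higher and 2 lower past the fold, against 13.2% of all genes in either direction. Here and below, ratios of list genes over all cells were not weighted to equal shares of the groups of cells, which differed between the libraries. Gdf15, a stress-induced ligand, stood at 73.5 CPM in DMSO and 32.7 CPM in MVC (ratio 0.445), and Inhbb, the second activin subunit, at 28.4 and 12.9 CPM (ratio 0.456). In other EC-like cells Gdf15 had 195 and 38.4 CPM (ratio 0.197, 0.168 to 0.230) and Inhbb 53.5 and 14 CPM (ratio 0.262, 0.199 to 0.340). In parenchymal FAP-like cells Bmp5 was higher (178 and 273 CPM; ratio 1.53) and Inhbb lower (58.7 and 20.1 CPM; ratio 0.342), opposite in direction to Inhba in the same cells.

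Of the 14 other antagonists, 12 were counted over all cells, and 3 were higher and 0 lower past the fold, against the same 13.2%. Bmper, a BMP-binding regulator, stood at 92.8 and 167 CPM (ratio 1.80), and Htra1, a secreted protease, at 42.4 and 65 CPM (ratio 1.53). In parenchymal FAP-like cells Bmper had 404 and 633 CPM (ratio 1.57), while Chrdl1, a BMP-binding chordin relative, had 26.1 and 5.41 CPM (ratio 0.207, 0.138 to 0.304). Chrdl1 was also lower in adventitial FAP-like cells (31.2 and 14.6 CPM; ratio 0.469, 0.337 to 0.645) and higher in Col22a1-led tenocyte-like cells (27.1 and 47.3 CPM; ratio 1.75, 1.26 to 2.44).

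Genes of latency and activation had 12 of 12 counted and 0 past the fold over all cells (13.2% of all genes), while some of them were past the fold within groups. Ltbp1, which tethers latent TGF-beta to the matrix, was higher in the MVC library in all 3 vascular EC-like groups: 24.7 and 94.2 CPM in other EC-like cells (ratio 3.82, 3.18 to 4.60), 16.2 and 55 CPM in arterial cells (ratio 3.39, 2.22 to 5.31) and 32.8 and 91.4 CPM in venous cells (ratio 2.78, 2.07 to 3.77). Ltbp4 in other EC-like cells had 75.6 and 168 CPM (ratio 2.22), but in Wif1-led tenocyte-like cells it was lower (ratio 0.616, 0.520 to 0.729). In other EC-like cells 3 of 8 genes of this list counted were past the fold, against 16.5% of genes. The counts were 2 of 8 in arterial cells, against 12.1%, and 1 of 7 in venous cells, against 19.3%. Thbs1, a secreted activator of latent TGF-beta, was lower in Col22a1-led tenocyte-like (ratio 0.506), Wif1-led tenocyte-like (0.556), macrophage-like (0.503) and parenchymal FAP-like cells (0.626). Of the list, 1 of 10 genes counted was past the fold in Col22a1-led cells, against 16.6% of genes, and 2 of 10 in Wif1-led cells, against 17%. In macrophage-like cells 2 of 7 were higher and 2 lower, against 16.4%, and in parenchymal FAP-like cells 2 of 10 were lower, against 16%. Receptors had 14 of 15 counted over all cells with 1 higher, Rgma (29.9 and 50.1 CPM), a BMP co-receptor, and all 8 Smads were counted with 0 past the fold, both against 13.2%.

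Target genes went in more than 1 direction. Of 6 TGF-beta target genes 1 was higher past the fold over all cells, against 13.2% of genes: Postn (periostin), at 35.3 and 74 CPM, with 4 DMSO and 228 MVC UMIs in parenchymal FAP-like cells (ratio 39.5, 15.2 to 146), although in pericyte-like cells it was lower (ratio 0.344). In parenchymal FAP-like cells Ccn2, another target, was lower (272 and 159 CPM; ratio 0.584), and in Col22a1-led tenocyte-like cells Postn was higher (249 and 588 CPM) while Ccn2 (ratio 0.554) was lower. Of 6 BMP target genes Id1 was lower past the fold over all cells, against the same 13.2% (285.5 and 187 CPM; ratio 0.655), and the list's median log2 ratio was -0.31 against 0.06 over all genes. In parenchymal FAP-like cells 3 of the 5 BMP targets counted were lower past the fold and 0 higher, against 16% of genes, with Id3 at 1546 and 696 CPM (ratio 0.450), beside the lower dissociation genes given above for those cells. In other EC-like cells Id4 was lower (ratio 0.645), 1 of 6 counted against 16.5% of genes. In venous EC-like cells Id1 was lower (277 and 136 CPM, ratio 0.490), 1 of 4 counted against 19.3%. In MuSC-like cells Id1 was lower (ratio 0.313), 1 of 3 counted against 19.2%. It was also lower in macrophage-like cells (0.434), 1 of 4 against 16.4%. In pericyte-like cells Id3 was lower (0.612), 1 of 4 against 15.8%. Of the large groups, those with higher BMP targets each had a lower one too. In inflammatory FAP-like cells Bambi was lower (0.569), and of 5 counted 1 was higher and 1 lower, against 11.7%. In B cell-like cells Id2 (ratio 2.81) and Id3 (1.53) were higher, and of 3 counted 2 were higher and 1 lower, against 20.7%. In adventitial FAP-like cells Id2 was higher (ratio 1.58, 1.13 to 2.21), and of 5 counted 1 was higher and 1 lower, against 12.4%.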

How the data were processed

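Single-cell RNA-seq libraries of sorted live mononuclear cells from mouse limb muscle were analysed, 1 from DMSO-treated and 1 from MVC-treated mice, grouped by the treatment in the labels. The values deposited by the authors were raw UMI counts per gene and barcode. The submitters' processing notes name Cell Ranger 7.0.0, Seurat 5.0.1 and mm10; the handling of intronic and antisense reads is not given in the sources used here. Barcodes under 500 genes or above 10% mitochondrial UMIs were dropped, namely 6.45% of DMSO and 9.81% of MVC barcodes, leaving a median of 5802 and 5195 UMIs per cell.

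Counts were scaled to 10000 UMIs per cell, log-transformed and clustered with scanpy 1.11.5 and leidenalg 0.10.2 (1983 variable genes, 30 principal components, 20 neighbours, resolution 1, 27 clusters, no integration). The members and the other pathway genes (85 in all), mitochondrial genes and a few sex-linked genes were kept out. A class needed 3 raised markers. Called doublets (4.35%) were kept. Cell type names were thus rebuilt and were not taken from the authors.

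UMIs were summed per group of cells and library. Intervals at 95% were exact Poisson (levels), exact conditional on the summed UMIs (ratios) and Clopper-Pearson (shares). For shares of cells with a UMI, cells were thinned to 2000 UMIs and shallower cells left out; 1453 of 1644 DMSO and 1052 of 1587 MVC other EC-like cells remained. The members and gene lists were chosen with earlier results of these data known. List genes were named if they were past the fold with at least 100 UMIs in the group, at most 4 per list and group; for each member with at least 200 UMIs the 3 most similar genes were named. The ratio and its call were tested on simulated data. Positions are from GENCODE M21 (GRCm38), in which 32158 of the 32285 gene IDs were found. Some genes of the lists are not reported here by name.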

Additional observations from a re-analysis of the deposited data

Results flagged for a closer look

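Inhba had MVC over DMSO ratios past the fold in opposite directions in different groups of cells, with counting intervals on opposite sides of 1. It was higher in B cell-like cells (10.9), parenchymal FAP-like cells (2.30) and Col22a1-led tenocyte-like cells (1.99), and lower in Wif1-led tenocyte-like cells (0.461) and venous EC-like cells (0.246). In the B cell-like, Wif1-led and venous groups 3 cells of a library held at least 77.4% of that library's Inhba UMIs. Fst was higher in Wif1-led tenocyte-like cells (2.47) and lower in pericyte-like cells (0.53), again with most of its UMIs in 3 cells of each library. The differences between groups of cells were not tested, because each library was a single sample.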

How the results depend on the processing

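Depth and the number of libraries limit every ratio. No paired analysis was possible because each group was 1 library and no result came from a test. Of the 21 member ratios past the fold in the 12 large groups, 13 stayed past it in the same direction in all 7 alternatives, 5 did not in at least 1, and 3 could not be read in at least 1 because under 20 UMIs or no group of that name was left. The count of 21 was 49 with genes of at least 1 UMI and 12 at a fold of 2. The share over all genes was not computed at these settings, so these counts are not read as a result about the members. Ratios that turned direction were those of Inhba in Wif1-led tenocyte-like cells (1.46 without called doublets, 1.54 without the 3 highest cells of each library), Bmp2 in arterial EC-like cells (0.910 as the mean of each cell's own CPM) and Fst in pericyte-like cells (1.08 without the 3 highest cells). Over all cells, the mean of each cell's own CPM gave 1.16 for Tgfb1, 1.31 for Tgfb2, 0.821 for Bmp4, 1.35 for Bmp6, 1.25 for Inhba and 1.74 for Gdf10. Scaling by the median ratio of genes gave 1.14 for Tgfb2 and 1.13 for Bmp6, the stricter cell filter 1.14 for Bmp6, and a pseudocount of 10 CPM 1.51 for Gdf10. Inhba over all cells was 1.21 without called doublets and 1.34 without the 3 highest cells. Bmp6 at equal shares of the groups was 1.22 with DMSO and 1.16 with MVC weights. The cause of these shifts was not tested beyond what each alternative leaves out. Leaving out the barcodes found in both libraries, and the DMSO cell with most Inhba UMIs from the shares of that gene, was chosen after seeing the data.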

Other observations

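Smaller groups of cells carried members too. Perineurial-like cells, the sheath cells of nerve fascicles (37 DMSO and 51 MVC cells), had Bmp6 at 357 and 386 CPM and Inhba at 43 and 139 CPM (14 and 53 UMIs; ratio 3.23, 1.77 to 6.31), with 50.9% of the MVC Inhba UMIs in 3 cells. Of the perineurial-like Bmp6 UMIs, 75.9% of DMSO and 64.6% of MVC were in 3 cells. Gm20754-led Schwann-like cells, of which 19.5% were called doublets, had Bmp6 at 449 and 565 CPM (ratio 1.26, 0.999 to 1.59), whereas Cadm2-led Schwann-like cells had 0 and 20 Bmp6 UMIs, 19 of them in 3 cells. Lymphatic EC-like cells had Tgfb2 at 79.2 and 144.5 CPM (ratio 1.83, 1.26 to 2.66) and Fst with 19 UMIs in DMSO and 1 in MVC (ratio 0.0653, 0.00157 to 0.411). The tenocyte list there summed to 21.7 and 497 CPM and the FAP list to 349 and 1102 CPM, and their part in these ratios was not tested. Colec11-led SMC-like cells had Fst at 94.8 and 207 CPM (ratio 2.18, 1.59 to 3.02), with 65.3% of the MVC UMIs in 3 cells, and 0 and 17 Gdf10 UMIs, while their summed FAP marker list stood at 880 and 2671 CPM.

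In T/NK-like cells (196 DMSO and 62 MVC cells) Inhba had 1 DMSO and 46 MVC UMIs (ratio 155.5, 26.5 to 6272). All 46 MVC UMIs were in 3 cells, 42 of them in 1 cell, and all 3 were called doublets. The summed tenocyte marker list was 8 CPM in the DMSO and 998 CPM in the MVC T/NK-like cells, and the FAP list 580 and 2561 CPM.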
